A study of Rattus norvegicus with 2 samples.

Results

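Circular RNAs (circRNAs) form by back-splicing, in which the end of an exon is ligated to the start of the same exon or of an earlier one. The circRNAs described here come from genes of protein kinases, protein phosphatases and their close partners. They were sequenced from rat spinal cord in a model of bone cancer pain (BCP) and after a sham operation. A circRNA was included if one of the gene names the table gives it begins with Mapk, Map2k, Map3k, Map4k, Taok, Stk, Nek, Cdk, Mark, Csnk, Hipk, Dusp, Ptpr, Ptpn or Ppp, where Nek, Mark and Ppp had to be followed by a digit. Stk39, Map2k5 and Map4k1 were left out. This took 280 of 11599 circRNAs, from 94 of 3865 host genes. No gene of the Dusp family was listed. BCP rats had received live Walker256 cells, a rat mammary carcinoma line grown as ascites in SD rats, in the marrow cavity of the tibia. Sham rats had received the same cells after boiling and the same surgery. Tissue was taken 21 days after surgery from 3 animals per group, and the labels give no age, sex or genotype. There was 1 library per group, and the labels do not say if the animals' RNA was pooled.

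Protein kinases attach phosphate to serine, threonine or tyrosine residues, and protein phosphatases take it off. In the MAPK cascades, kinases act in tiers. MAP4K enzymes can activate MAP3K enzymes, which activate MAP2K enzymes, which activate the MAP kinases ERK, JNK and p38. In the spinal cord, phosphorylation of these kinases in neurons and glia is a known feature of persistent pain states. A circRNA of such a gene is not its mRNA, and its reads do not measure the enzyme or its activity.

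A single library stands for each condition, so nothing below has a replicate check, and what is compared is a pair of libraries. Values are back-splice reads, or CPM, reads scaled to the total circRNA reads of a library, 113033 in sham and 78836 in BCP. Where 2 read counts stand together, sham comes first, and a ratio is BCP over sham. Intervals are 95% exact (Clopper-Pearson) and cover counting error only. PCR copies of a molecule could not be told apart, so the intervals can be too narrow even for that. The smallest count above 0 in the table was 2, so a listed 0 does not show absence, and no fold is given against 0. CircRNAs and genes with 10 or more reads in the sum of both libraries were tested. The size rule asked for a 2-fold or larger ratio and an interval that excluded 1. In a whole tissue, fewer cells of a type and less RNA per cell cannot be told apart. The source label of both libraries names the injected tumour line and the tissue label names spinal cord, so the tissue was checked against marker genes. Neuron genes were listed for 10 of 11 names, with 1481 reads in sham and 858 in BCP. Their ratio was 0.831 (0.763 to 0.904), an interval below 1. The skeletal muscle and Hox position lists had no circRNA. Reads of the microglia and macrophage list (3 of 10 genes listed) were 13 and 55, those of the oligodendrocyte list (5 of 8) were 23 and 59, and those of the astrocyte list (2 of 7) were 19 and 42. In each of these lists a circRNA listed at 0 in sham took part of the BCP reads: without Dock8 (12 reads), Mbp (27) and Slc7a11 (32), the lists had 13 and 43, 23 and 32, and 19 and 10 reads. Of what was left in the microglia and macrophage list, 1 circRNA held 11 and 43 reads, and that of Ptprc went the other way (2 and 0). The part of these marker differences in the results below was not tested.

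As a group, the kinase and phosphatase genes took nearly the same share of both libraries. They held 1983 reads in sham (1.75%, 1.68 to 1.83) and 1318 in BCP (1.67%, 1.58 to 1.76), a ratio of 0.953 (0.888 to 1.02). Median-of-ratios and TMM scaling, which shift every log2 ratio by -0.10 and -0.12, brought this ratio to 0.886 (0.826 to 0.951) and 0.879 (0.819 to 0.943). Of the 280 circRNAs, 113 had reads in both libraries, 106 in sham alone and 61 in BCP alone. These shares (40.4%, 37.9% and 21.8%) were close to those of the whole table (41.2%, 36.4% and 22.4%). The 70 circRNAs with enough reads to be tested held 73.9% of the reads, and the other 210 are described by ranges and sums.

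By the size rule, 3 of the 70 tested circRNAs were higher in BCP, 3 were lower, and 64 met neither side. In the whole table, 7.82% of 3502 tested circRNAs were higher and 7.42% lower, against 4.29% each way here. The share called in either direction was 8.57% of these 70, below the 15.2% of all tested circRNAs. The median log2 ratio of the 70 was -0.01, beside 0.02 over all tested. Among circRNAs with at least 20 reads and reads in both libraries, 28 of 30 lay within 2-fold of an equal share, beside 83.6% of 1722 in the table.

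**Figure D1:**
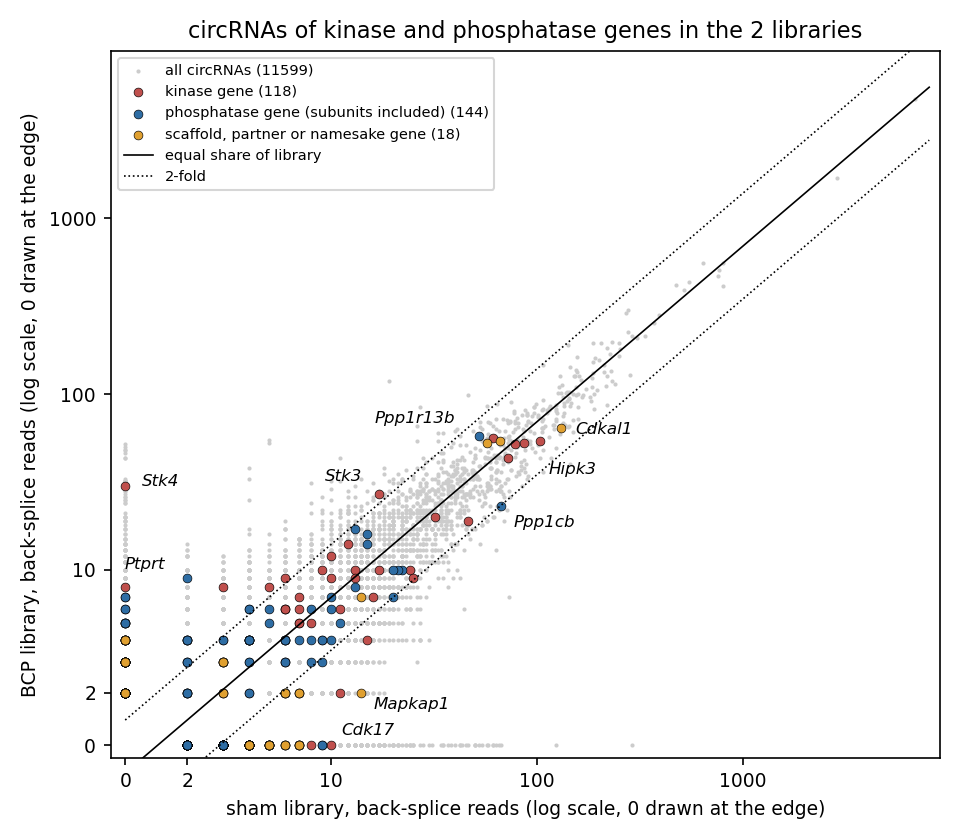
Back-splice reads of each circRNA in the sham library (horizontal) and the BCP library (vertical), on log axes with 0 drawn at the edge. Grey points are all 11599 circRNAs, and coloured points are the 118 of kinase genes, the 144 of phosphatase genes and the 18 of scaffold, partner and namesake genes. Of the coloured points with at least 20 reads and reads in both libraries, 28 of 30 lie between the dotted 2-fold lines, and Stk4 stands on the left edge with 30 reads in BCP.

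The 10 most abundant circRNAs held 38.9% of the group's reads in sham and 38.7% in BCP. First was a circRNA of Cdkal1, a namesake of the kinases whose product is a tRNA-modifying enzyme (chromosome 17, 36602134 to 36627167, build rn6). It had 130 reads in sham (1150.1 CPM) and 64 in BCP (812 CPM), lower in BCP by 1.42-fold (1.04 to 1.94), and ranked 105 in the whole table. Start and end here are the lower and the higher coordinate, whatever the strand. Another circRNA of Cdkal1 that ends at the same position (36610259 to 36627167) had 66 and 54 reads, a ratio of 1.17 (0.803 to 1.71). The longer one thus took 62.8% of the Cdkal1 reads in sham (55.8 to 69.4) and 54.2% in BCP (44.8 to 63.4), with overlapping intervals.

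Hipk3, a homeodomain-interacting kinase gene known in mammals for an abundant circRNA of 1 large exon, had a circRNA of 1099 bp (chromosome 3, 94396940 to 94398038). It had 103 and 54 reads, a ratio of 0.752 (0.530 to 1.05). Mapk4, the gene of the atypical MAP kinase ERK4, had a circRNA of 1372 bp with 86 and 53 reads (chromosome 18, 69943105 to 69944476). Taok1, a MAP3K-tier kinase gene that acts on p38 and JNK signalling and on microtubules, had a circRNA of 978 bp with 78 and 52 reads (chromosome 10, 62574791 to 62575768). The ratios of Mapk4 (0.884, 0.615 to 1.26) and Taok1 (0.956, 0.660 to 1.38) had intervals that include 1. Short circRNAs held more of the group's reads than of its circRNAs. CircRNAs of at most 1500 bp were 13.6% of its circRNAs and held 21.4% of its reads in sham and 21.2% in BCP. Most of these reads were of the Hipk3, Mapk4 and Taok1 circRNAs above and that of Mapk12 (1031 bp, 46 and 19 reads). In the table, short circRNAs were 15.5% of circRNAs with 16.1% and 17.5% of reads. The median span was 10910 bp (from 145 to 173853), beside 9708 bp in the table.

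In the MAPK tiers, 0 of 10 tested kinase circRNAs met the size rule, beside 15.2% of all tested circRNAs. At the MAP kinase end, 7 genes with 12 circRNAs summed to 167 sham and 85 BCP reads, a ratio of 0.730 (0.555 to 0.953). With circRNAs read in both libraries alone it was 0.827 (0.619 to 1.10), so the interval below 1 rests on circRNAs listed at 0 in BCP. Mapk12, the gene of p38 gamma, had 46 and 19 reads (ratio 0.592, 0.328 to 1.03; chromosome 7, 130113212 to 130114242). A circRNA of Mapk14, the gene of p38 alpha, had 8 sham reads against a listed 0 in BCP. Both circRNAs of Mapkapk5, a kinase gene downstream of p38 and ERK3, were listed at 0 in BCP as well, with 7 and 3 reads in sham. The JNK genes had few reads: Mapk10 had 8 and 4 over 3 circRNAs, and Mapk8 had 0 and 2.

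The summed ratios of the higher tiers had intervals that include 1. The MAP2K genes Map2k1 (MEK1) and Map2k4 (MKK4) summed to 32 and 26 reads, a ratio of 1.16 (0.667 to 2.02). The leading circRNA of Map2k1 had 17 and 10 reads (chromosome 8, 69162681 to 69164753), and another that ends at the same position (69153841 to 69164753) had 7 BCP reads against a listed 0 in sham. MAP3K and TAO kinase genes summed to 150 and 109 reads (1.04, 0.807 to 1.34), led after Taok1 by Map3k3 (MEKK3), with 32 and 20 reads for its main circRNA. Another Map3k3 circRNA with the same start (chromosome 10, 94292693 to 94320863) had 6 BCP reads, 19.4% of the gene, against a listed 0 in sham. Map3k5, the gene of the stress-activated kinase ASK1, had 10 and 9 reads for its main circRNA. MAP4K genes had 24 and 12 reads (0.717, 0.327 to 1.49), led by a circRNA of Map4k3 with 11 and 6.

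The STK kinase genes held 2 of the 3 circRNAs that were higher in BCP. These were 2 of 8 tested STK circRNAs, beside 7.82% of all tested circRNAs. Stk4 and Stk3 encode MST1 and MST2, paralogous kinases at the head of the Hippo pathway, which restrains cell growth. A circRNA of Stk4 (chromosome 3, 160491308 to 160495240) had 30 BCP reads against a listed 0 in sham (381 CPM, 257 to 543). It was the only circRNA listed in BCP alone, of 61 in the group, with more than 8 reads. It took 66.7% of the Stk4 reads in BCP (51.0 to 80.0). Another Stk4 circRNA that ends at the same position but starts at a lower one (160472801 to 160495240) led in sham with 16 reads, 45.7% of the gene (28.8 to 63.4), and had 7 in BCP, 15.6% (6.49 to 29.5). The remaining 5 circRNAs of Stk4 had 19 reads in sham and 8 in BCP in all. Summed over the gene, Stk4 had 35 and 45 reads (higher in BCP by 1.84-fold, 1.16 to 2.95), under the 2-fold threshold.

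Of the 7 circRNAs of Stk3, the one that was higher (chromosome 7, 73834044 to 73848871) had 17 reads in sham and 27 in BCP, 2.28-fold higher (1.20 to 4.45). It was the most abundant Stk3 circRNA in both libraries, with 42.5% of the gene's reads in sham (27.0 to 59.1) and 64.3% in BCP (48.0 to 78.4). A circRNA from 73684650 to 73748233 had 11 and 2 reads (ratio 0.261, 0.0281 to 1.19), and did not meet the rule. Another tested one (73808151 to 73848871) had 7 and 7 reads (1.43, 0.429 to 4.79). The other tested circRNAs of Stk4 had ratios of 0.627 (0.218 to 1.61) and 0.956 (0.198 to 4.03). All these intervals include 1, so the tested circRNAs of neither gene show a direction opposite to the one called. Over all 7 STK genes the reads were 112 and 108 (1.38, 1.05 to 1.82), and the ratio was 0.999 (0.738 to 1.35) without the Stk4 circRNA listed at 0 in sham. With median-of-ratios scaling and every circRNA it was 1.29 (0.978 to 1.69).

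**Figure D2:**
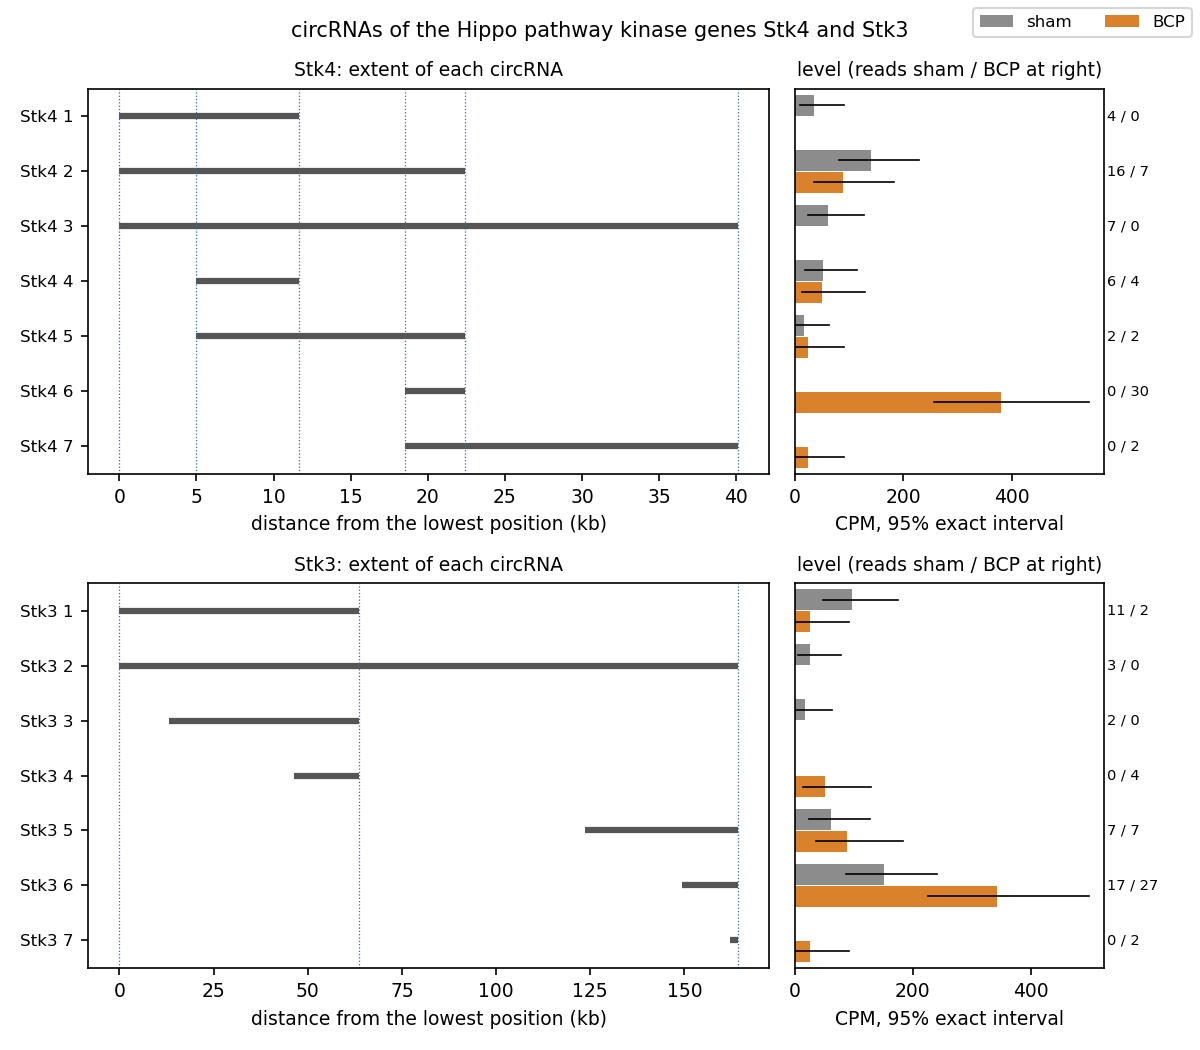
Extent of each circRNA of Stk4 and Stk3 (left, distance in kb from the lowest position, dotted lines at positions that several circRNAs use) and its level in each library (right, CPM with 95% exact intervals, none drawn at 0 reads). The Stk4 circRNA with 30 reads in BCP and 0 in sham shares its end with the one that led in sham, and the leading Stk3 circRNA had 17 and 27 reads.

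Mark3, a kinase gene of microtubule-associated proteins and cell polarity, had the most reads of the group. Its 11 circRNAs held 211 sham and 164 BCP reads, a ratio of 1.11 (0.903 to 1.37). All 11 were read in both libraries. Among genes with at least 10 circRNAs, this held for 1 of 123 in the table, which is Mark3, and among those with at least 5 it held for 2 of 527. The gene was singled out for this after its values were seen. None of its 8 tested circRNAs met the size rule, beside 15.2% of all tested circRNAs. The log2 ratios of the 8 ran from -0.70 (24 and 10 reads, 136059672 to 136071884) to 1.07 (6 and 9 reads, 136059672 to 136091144).

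The Mark3 circRNAs used few outer positions. On chromosome 6, 6 of the 11 start at 136059672 and held 61.1% of the reads in sham and 53.7% in BCP, and 4 end at 136107031. The leading circRNAs were 1 of each kind. The one from 136059672 to 136084622 had 72 and 43 reads (34.1% and 26.2% of the gene), and the one from 136102013 to 136107031 had 61 and 56 (28.9% and 34.1%). The order of these was reversed between the libraries, but the intervals of their shares overlap (27.8 to 40.9 in sham and 19.7 to 33.6 in BCP for the first, 22.9 to 35.5 and 26.9 to 41.9 for the other). Shared positions were common in the group: 181 of 280 circRNAs (64.6%) had a start or end in common with another circRNA of their gene, beside 59.4% of the 10004 circRNAs of the table with 1 host.

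Mapkap1 encodes SIN1, a subunit of the kinase complex mTORC2 that also binds MAPK pathway proteins. Its main circRNA (chromosome 3, 13510410 to 13522529) had 57 and 53 reads (1.33, 0.900 to 1.97). A much longer one (13496853 to 13602354, 105502 bp) had 14 and 2 reads, lower in BCP by 4.88-fold (1.12 to 44.3), and was 1 of the 3 that were lower by the size rule. The table names small RNA families beside Mapkap1 for this circRNA, so its host is less certain. The main circRNA took 55.9% of the Mapkap1 reads in sham (45.7 to 65.7) and 79.1% in BCP (67.4 to 88.1), intervals that do not overlap. The 3 circRNAs that end at 13602354 summed to 27 and 4 reads.

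**Figure D3:**
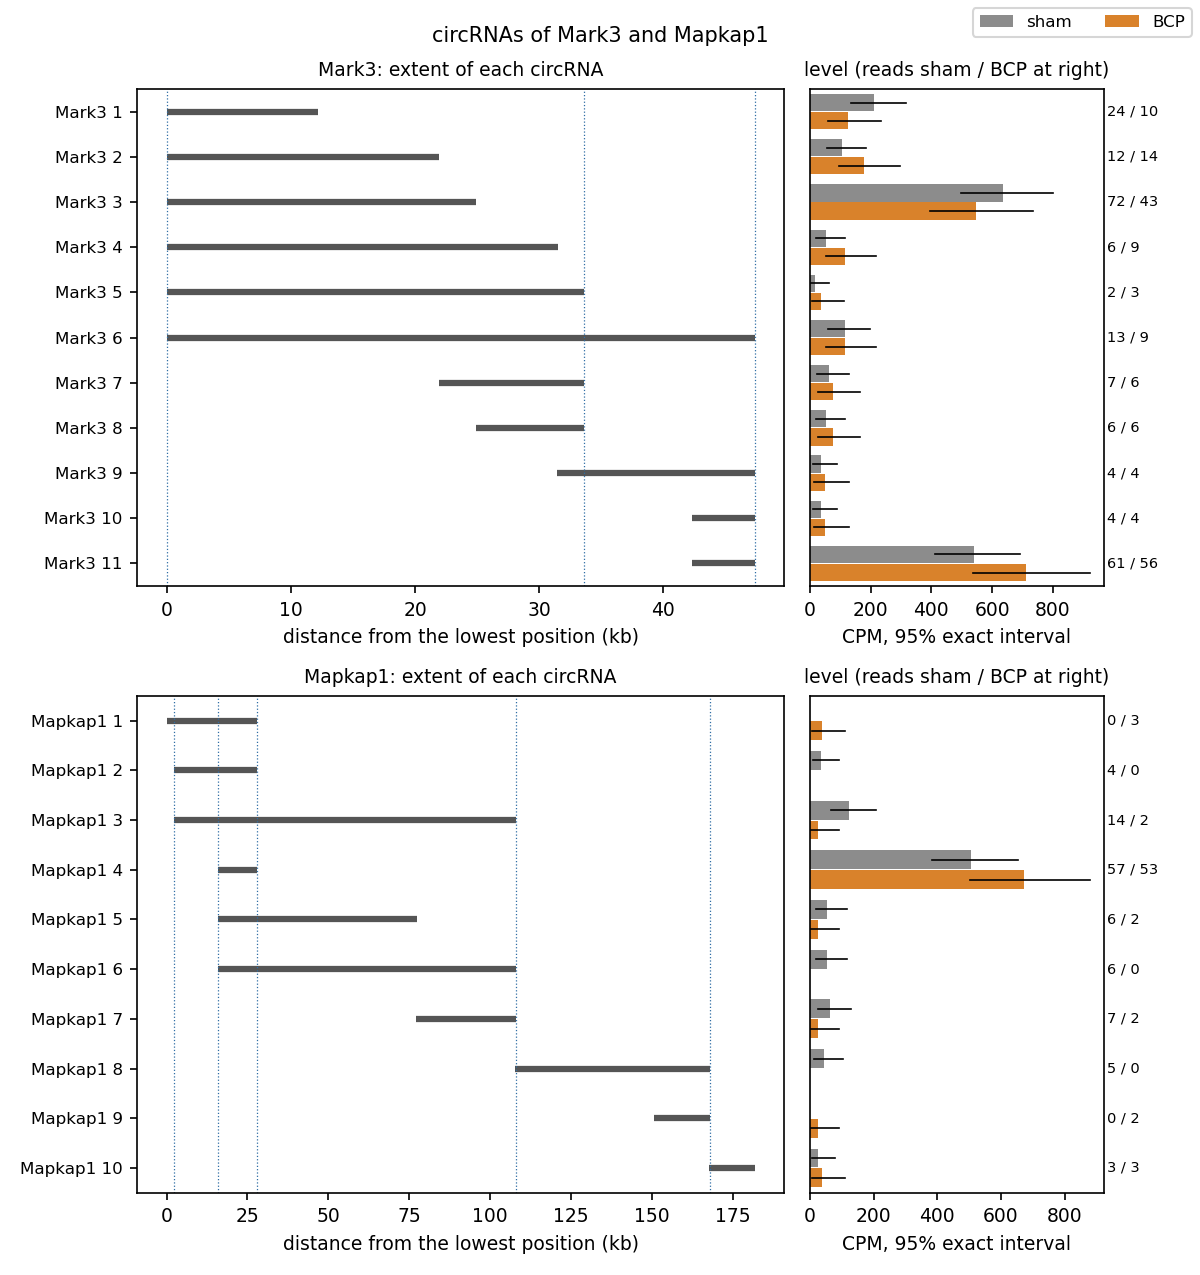
Extent of each circRNA of Mark3 and Mapkap1 (left, distance in kb from the lowest position, dotted lines at positions that several circRNAs use) and its level in each library (right, CPM with 95% exact intervals, none drawn at 0 reads). All 11 Mark3 circRNAs have reads in both libraries, while 5 of the 10 Mapkap1 circRNAs are listed in 1 library alone.

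Among cyclin-dependent kinase genes, 0 circRNAs were higher and 1 was lower of 6 tested, beside 7.82% and 7.42% of all tested circRNAs. The lower one, of Cdk17, a kinase gene of the PCTAIRE group, had 10 sham reads against a listed 0 in BCP (chromosome 7, 34062076 to 34077301). It is the only Cdk17 circRNA, and with 1 read in place of 0 it did not meet the rule. Cdk14, also of this wider group, had 9 circRNAs with 52 and 23 reads (0.634, 0.370 to 1.05). Its leading circRNA in sham (chromosome 4, 26120997 to 26130679) had 15 and 4 reads, and its leading one in BCP (26336094 to 26341599) had 9 and 10. Its other tested circRNA (25963495 to 26130679) had 8 and 5. The transcription-linked kinase gene Cdk12 had 9 and 12 reads, and the related Cdk13 had 11 and 2.

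The remaining kinase families (NEK, casein kinase and HIPK, 2 tested circRNAs each) had 0 circRNAs past the rule, beside 15.2% of all tested circRNAs. NEK genes, named for relatives of a mitotic kinase, summed to 32 and 38 reads (1.70, 1.04 to 2.82), led by Nek4 with 10 and 12 reads for its main circRNA. That interval included 1 with median-of-ratios scaling (1.58, 0.963 to 2.62). Casein kinase genes had 47 and 28 reads (0.854, 0.515 to 1.39). The main circRNA of Csnk2a1, which encodes a catalytic subunit of CK2, had 25 and 9 reads (ratio 0.516, 0.212 to 1.14; chromosome 3, 147736963 to 147740988). Its other 2 circRNAs had 5 and 2 BCP reads, each against a listed 0 in sham.

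Hipk2, a kinase gene related to Hipk3 and linked to stress responses, was the only 1 of 59 tested host genes whose summed reads were higher in BCP by the size rule (8.82% of 2144 tested host genes were higher in the table). Its 4 circRNAs summed to 6 and 18 reads (4.30-fold higher, 1.64 to 13.2). The tested one (chromosome 4, 66470390 to 66473208) had 3 and 8 reads (3.82-fold, 0.918 to 22.4) and did not meet the rule alone. A longer one with the same end (66463926 to 66473208) had 8 BCP reads against a listed 0 in sham. The sum over circRNAs read in both libraries (3 and 8 reads) did not meet the rule. The table names small RNA families beside Hipk2 for 3 of the 4 circRNAs, and the one with Hipk2 as its only name had 0 and 2 reads, too few to test.

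Phosphatase genes together had 682 sham and 420 BCP reads, a ratio of 0.883 (0.780 to 0.999), while kinase genes had 975 and 697 (1.02, 0.929 to 1.13, and 0.953, 0.864 to 1.05, with median-of-ratios scaling). The intervals of these ratios overlap. Of 27 tested phosphatase circRNAs, 1 was higher and 1 lower, beside 7.82% and 7.42% of all tested circRNAs. The ratio of the phosphatase genes was 1.01 (0.871 to 1.16) from circRNAs read in both libraries alone, and 0.926 (0.814 to 1.05) without the circRNA of Ppp1cb. It was 0.824 (0.722 to 0.939) without the most abundant phosphatase circRNA, of Ppp1r13b. Median-of-ratios scaling gave 0.821 (0.725 to 0.929), and TMM gave 0.814 (0.719 to 0.921).

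The catalytic subunits of serine and threonine phosphatases had the lowest ratio of the phosphatase roles, 183 and 77 reads (0.603, 0.456 to 0.791). Ppp1cb, which encodes the beta catalytic subunit of protein phosphatase 1, had a single circRNA (chromosome 6, 23554728 to 23563843) with 67 reads in sham (593 CPM) and 23 in BCP (292 CPM). It was lower in BCP by 2.03-fold (1.25 to 3.42), just inside the threshold. Without it the ratio of the catalytic subunits was 0.667 (0.474 to 0.930), and with circRNAs read in both libraries alone it was 0.774 (0.576 to 1.03).

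Calcineurin, the calcium-dependent phosphatase, gave the other large share of these reads. Its catalytic subunit genes Ppp3ca, Ppp3cb and Ppp3cc had 31 and 11, 14 and 2, and 56 and 35 reads. Ppp3cb met the size rule as lower on its sum (4.88-fold, 1.12 to 44.3), though only 1 of its 3 circRNAs, with 7 and 2 reads, was read in BCP. Ppp3ca did not (0.509, 0.231 to 1.04), but did with median-of-ratios (0.473, 0.215 to 0.967) and TMM scaling (0.469, 0.213 to 0.959), and 5 of its 8 circRNAs were listed in sham alone, led by one with 9 reads (chromosome 2, 242024056 to 242041689). For Ppp3cc, 2 circRNAs that start at the same position of chromosome 15 (51936366) had the most reads. The one that ends at 51944899 had 15 and 16 reads, and the one that ends at 51954838 had 20 and 10, so different circRNAs led in the libraries, with ratios of 1.53 (0.708 to 3.32) and 0.717 (0.300 to 1.60).

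Regulatory subunits, which direct these enzymes to their substrates, had 247 and 197 reads over 18 genes (1.14, 0.943 to 1.38). Of their 11 tested circRNAs, 0 met the size rule, beside 15.2% of all tested circRNAs. Ppp1r13b encodes ASPP1, a partner of p53 and of protein phosphatase 1. Its main circRNA (chromosome 6, 136430192 to 136436620) had 52 and 58 reads, higher in BCP by 1.60-fold (1.08 to 2.37). With Cdkal1 it was 1 of 2 circRNAs of the group whose interval excluded 1 but whose ratio stayed under 2-fold. Ppp1r16b, a regulator of protein phosphatase 1 known from endothelial cells, had a circRNA of 349 bp with 13 and 17 reads (1.87, 0.858 to 4.20). Ppp2r3a, a regulatory subunit gene of protein phosphatase 2A, had 22 and 10 reads for its main circRNA, and Ppp1r9a, the gene of the actin-binding synaptic protein neurabin, had 20 and 7.

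Receptor-type tyrosine phosphatases, several of which act in axon growth and synapse formation, had 52 circRNAs of 13 genes, the most of any role, but only 185 and 106 reads (0.822, 0.641 to 1.05). Of these 52, 14 were read in both libraries (26.9%, beside 41.2% in the table), 28 in sham alone (53.8%, beside 36.4%) and 10 in BCP alone (19.2%, beside 22.4%). From the 14 read in both alone the ratio was 1.16 (0.845 to 1.59), and with median-of-ratios and TMM scaling of all 52 it was 0.764 (0.596 to 0.975) and 0.757 (0.591 to 0.967). A short circRNA of Ptprt (294 bp; chromosome 3, 158120096 to 158120389) had 2 and 9 reads, higher in BCP by 6.45-fold (1.34 to 61.4), and met the size rule. The other 6 Ptprt circRNAs went from 25 reads in sham to 3 in BCP, and 5 of them were listed at 0 in BCP. Ptprd, a gene of synaptic adhesion with 14 circRNAs, had 52 and 34 reads (0.937, 0.590 to 1.47), led by one with 21 and 10 (chromosome 5, 92962208 to 92983896). Its other 2 tested circRNAs had 9 and 4, and 5 and 6 reads.

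Ptprr, whose product takes phosphate off ERK and p38, met the size rule as lower on its sum, with 18 and 2 reads over 5 circRNAs (6.28-fold, 1.503 to 55.8). Only 1 of these 5 was read in BCP (6 and 2 reads), and none had enough reads to be tested alone. Ptpra, a phosphatase gene that activates SRC family kinases, had 15 and 14 reads for a circRNA of 358 bp. Ptprn2, a phosphatase-like gene of secretory vesicles, had a circRNA with 9 reads in sham and 0 in BCP, and Ptpru had one with 0 and 7. Ptprc, the gene of the leukocyte antigen CD45, had 2 sham reads against a listed 0 in BCP.

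Non-receptor tyrosine phosphatases had 67 and 40 reads (0.856, 0.564 to 1.29, and 1.10, 0.610 to 1.96, from circRNAs read in both libraries alone). Of their 3 tested circRNAs, 0 met the size rule, beside 15.2% of all tested circRNAs. Ptpn11, the gene of SHP2, which promotes RAS and ERK signalling, had 10 reads in sham over 3 circRNAs and was listed at 0 in BCP. Ptpn12, a phosphatase gene of cell adhesion, went from 22 to 25 reads over 8 circRNAs. Its leading circRNA in sham (chromosome 4, 10655703 to 10675611) had 10 and 4 reads, and another with the same start (10655703 to 10681514) had 0 and 6.

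**Figure D4:**
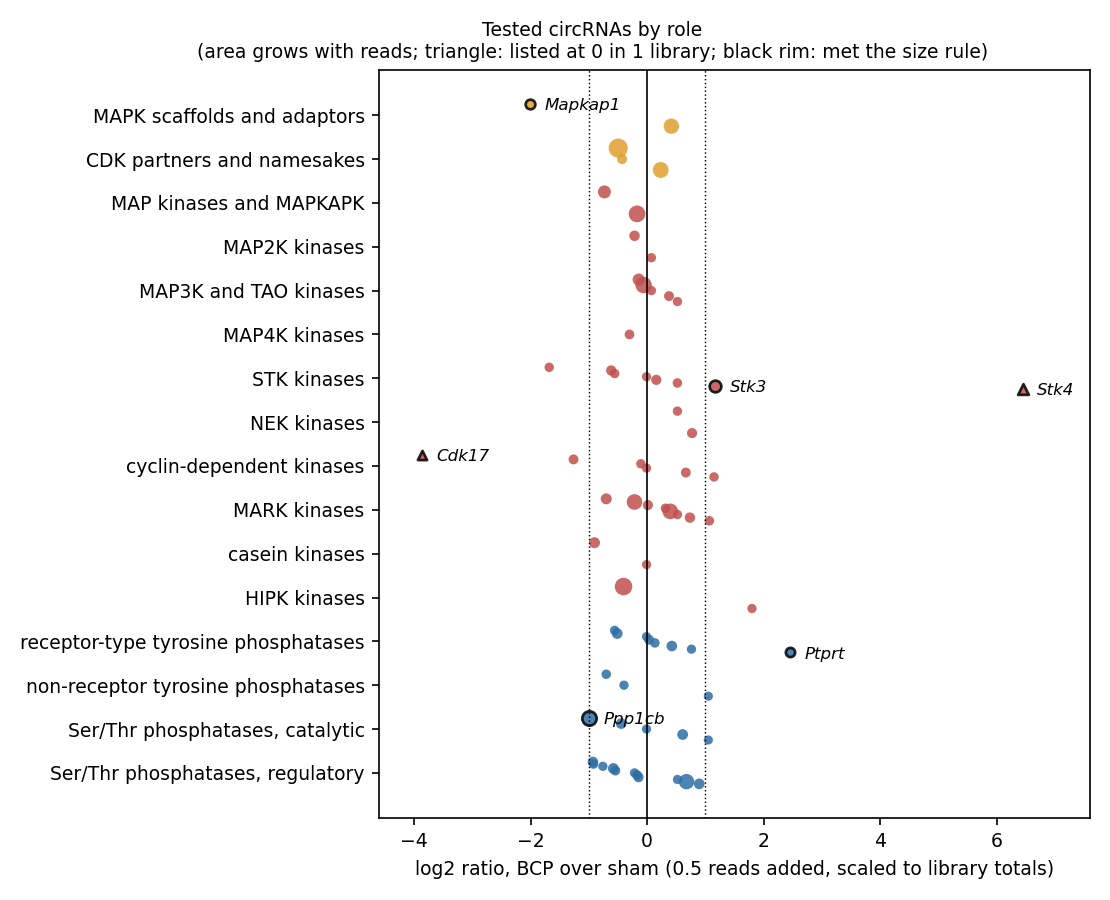
Log2 ratio of BCP over sham for the 70 tested circRNAs, 1 row per role, with 0.5 reads added to each count and dotted lines at 2-fold. Point area grows with reads, triangles mark circRNAs listed at 0 in 1 library, and the 6 points with a black rim met the size rule: Stk4, Stk3 and Ptprt higher, and Mapkap1, Cdk17 and Ppp1cb lower in BCP.

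On sums over all circRNAs of a gene, 6 of the 59 tested host genes were lower in BCP (8.58% of tested host genes in the table were lower): Ppp1cb, Ptprr, Ppp3cb, Cdk17, Mapkapk5 and Ptpn11. From circRNAs read in both libraries alone, 46 genes could be tested and 1 was lower, Ppp1cb. The other 5 could not be tested in this way. Every circRNA of Cdk17, Mapkapk5 and Ptpn11 was listed at 0 in BCP. Ptprr (6 and 2 reads) and Ppp3cb (7 and 2) kept fewer than 10 reads. CircRNAs of the group listed in sham alone had 3 reads in the median and at most 10, and those listed in BCP alone had 3 in the median and at most 30. Of 31 host genes with at least 2 circRNAs and at least 20 reads, the same circRNA was ranked first in both libraries in 19. It was not in 12 (38.7%), where a tie was given to the circRNA with the lower start. The 12 thus include ties: in BCP the leading sham circRNA of Ppp6r3 tied at 5 reads, and 2 circRNAs of Hipk2 tied at 8. By the same criteria the one ranked first differed in 332 of 1204 host genes of the table (27.6%). How many of the 12 or the 332 were ties was not counted.

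**Figure D5:**
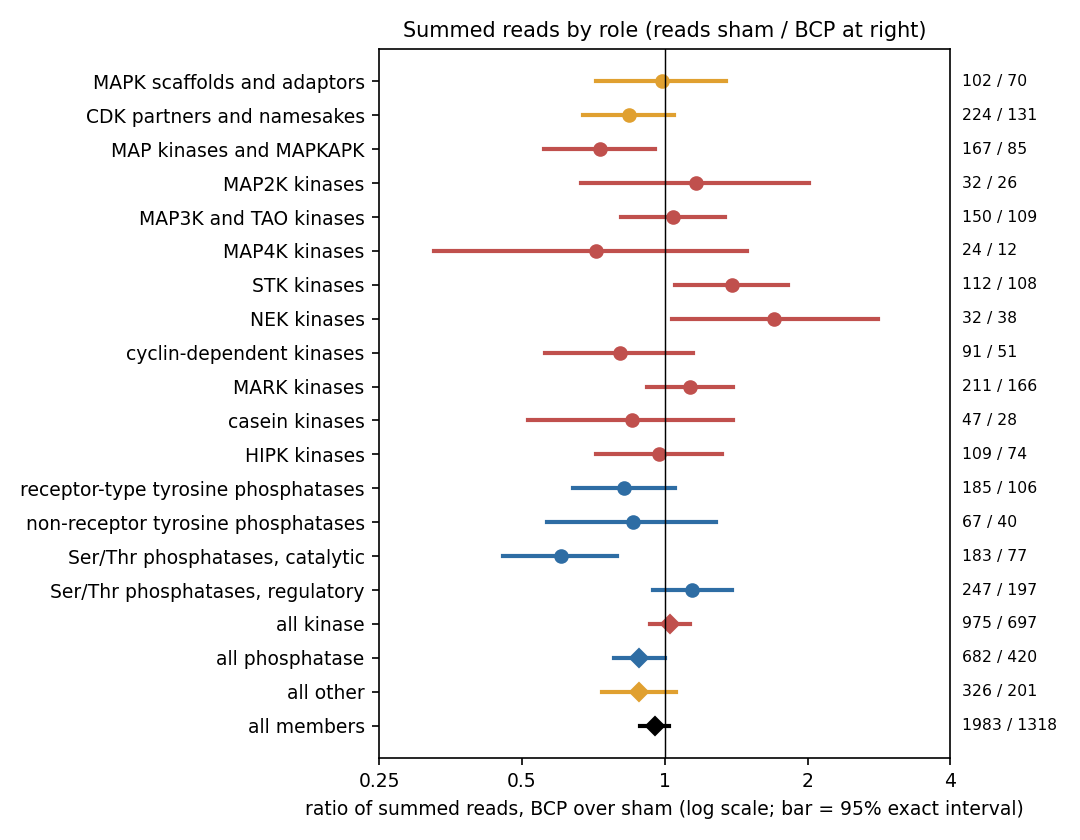
Ratio of summed reads, BCP over sham, for each role (circles) and for all kinase, phosphatase, other and all genes of the group (diamonds), on a log axis with 95% exact intervals. The reads in sham and BCP stand at the right. The catalytic subunits of serine and threonine phosphatases (183 and 77 reads) lie lowest, and the NEK kinases (32 and 38 reads) highest.

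Other kinase and phosphatase genes that the prefixes do not take were read from a list of 73 names, of which 50 were in the table with 181 circRNAs. The 50 include Tnks, which is neither a kinase nor a phosphatase gene, with 2 circRNAs that had too few reads to be tested. Of the 53 tested circRNAs of the list, 2 were lower in BCP, beside 7.42% of all tested circRNAs. These were a circRNA of the receptor kinase gene Bmpr2 (26 and 7 reads, 2.59-fold, 1.10 to 7.07) and one of the tubulin kinase gene Ttbk2 (17 sham reads against a listed 0 in BCP). Over its 13 circRNAs, Ttbk2 had 149 and 104 reads (1.00, 0.771 to 1.29). The most abundant circRNA of the list, of the neuronal polarity kinase gene Brsk2 (chromosome 1, 214933395 to 214938246), had 182 and 91 reads (0.717, 0.551 to 0.927) and did not reach the 2-fold threshold. The next, of the phosphatase gene Phlpp1, had 92 and 52 (0.810, 0.565 to 1.15).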

How the data were processed

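CircRNA sequencing was done on spinal cord, with 1 library for BCP and 1 for sham. Per the labels' protocols, RNA was depleted of ribosomal RNA, treated with 16 units of RNase R for 15 minutes, and made into dUTP strand-marked libraries. The submitters' processing notes name CASAVA 1.8, BWA and build rn6. The name of the circRNA caller, like that of the annotation, was not given in the sources used here. A single table was deposited by the authors, with back-splice counts and a column headed TPM for each library. The deposited TPM values are CPM: they equal the count over the column total, with 0 written as 0.001.

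Ratios of scaled counts and their 95% conditional exact binomial intervals were computed with Python 3.11.15 and scipy 1.17.1. Log2 values had 0.5 reads added. Size factors came from DESeq2 1.42.0 and TMM factors from edgeR 4.0.16, as alternatives with no test. The procedure was tested on simulated libraries that differ by counting error and set fold changes alone. Such a test cannot cover differences between animals or between library preparations. Names spanning over 3 Mb were to be left out, and 0 of the 65 such names matched the prefixes. Of 94 host names, 93 matched a RefSeq symbol and 1 a synonym. Of the 280 circRNAs, 33 carry small RNA names beside the host and 2 another host name.

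The genes and lists were chosen with earlier results of these data known. Named were the 10 circRNAs with most reads, all that met the size rule, the 6 with most reads listed in 1 library per direction, the leading one per role, the 5 genes with most circRNAs, genes of 3 or more circRNAs called on their sum, and those next to the 2-fold threshold. Other names were added after their values were seen. No p-value was computed. A few genes of the list of other kinases and phosphatases and of the marker lists are not reported here, so no count of higher circRNAs, median or sum is given for the former.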

Additional observations from a re-analysis of the deposited data

How the results depend on the processing

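With 1 library per group no replicate could be left out, and the values hold for these libraries alone. No paired analysis was possible because each group has 1 library. With median-of-ratios and TMM scaling the summed ratio of all genes of the group was 0.886 and 0.879, with intervals below 1, and the counts of called circRNAs stayed at 3 and 3. Under both scalings 7 host genes were lower in place of 6, with Ppp3ca added. The read minimum moved the counts most. With at least 5 reads, 13 of 141 circRNAs were higher and 11 lower, 17.0% in all beside 20.0% of the table. With no minimum the counts were also 13 and 11, of 280, or 8.57% beside 10.8%. With at least 5 reads 10 host genes were lower. With at least 20 reads 1 circRNA and 2 host genes were lower. At 1.5-fold, 3 host genes were higher. From circRNAs read in both libraries alone, 0 host genes were higher and 1 lower, and the ratio of phosphatase genes was 1.01. With circRNAs of a single gene name, 0 host genes were higher, Hipk2 being lost, and 5 were lower. The phosphatase ratio was then 0.890 (0.780 to 1.02). That ratio was 0.926 without the Ppp1cb circRNA. The HIPK ratio was 4.78 (1.85 to 14.5) without the circRNA of Hipk3, and the STK ratio was 0.999 without the Stk4 circRNA listed at 0 in sham. The settings with 1 read in place of 0 or a pseudocount, without the Stk4 or Ppp1cb circRNA, without single marker circRNAs, and those of each role were chosen after seeing the data. Where a value changed through fewer reads or circRNAs, the setting's construction sets which were left, and otherwise the cause was not tested.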
